A study of Rattus norvegicus with 20 samples.

Results

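A set of 10 genes that mark the pain- and temperature-sensing neurons of the sensory ganglia was followed through the injured rat forebrain and cervical spinal cord: Trpv1, Trpm8, Scn10a, Scn11a, Avil, P2rx3, Pirt, Tmem233, Mrgprd and Prdm12. The set is 10 of the 30443 genes listed, and each was taken by its gene name, which had 1 entry in the table for every one of them. The genes had been chosen because their levels in spinal cord below the lesion (region 5) were higher in the stimulated animals, so the values of that comparison are given as a description and without a test.

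The libraries came from 4 adult female Long-Evans rats, wild type, 6 to 8 months old and weighing 275 to 350 g. All 4 had a contusion of 1 side of the cord at cervical level 4, with a displacement of 0.7 mm, and an electrode array implanted within the motor cortex on the side opposite the injury. The 2 stimulated animals received 10 Hz pulses for 5 hours a day, in cycles of 5 minutes on and 2 minutes off at 80% of the movement threshold. The study describes this as 1 week of stimulation, and its methods give 5 days, starting 3 weeks after injury. The 2 control animals were connected to the stimulator without current. Each animal gave 5 libraries: white matter beneath the electrodes (region 1), the matching block on the other side (region 2), cord above the lesion (region 3), the lesion (region 4) and cord below it (region 5). The sample labels put region 5 at about cervical levels 4 to 6, and the study's design text puts it 1 level lower. The cord blocks held gray and white matter, and neither dorsal roots nor ganglia are named among their contents. No animal was uninjured or without an implant, so every value belongs to injured and implanted rats.

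Nociceptors are sensory neurons whose cell bodies lie in the dorsal root and trigeminal ganglia, outside the spinal cord. Each sends 1 branch to skin or viscera and another through the dorsal root into the dorsal horn, where its terminals release glutamate and peptides. Most of the mRNA of such a neuron is in the cell body, although axons carry some. In bulk tissue, more cells of a type and more RNA per cell cannot be told apart.

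The members are ion channels, receptors and proteins of the sensory neuron's interior. Trpv1 is the ion channel opened by heat and capsaicin and Trpm8 the one opened by cold and menthol. Scn10a and Scn11a encode the tetrodotoxin-resistant sodium channels of nociceptors. P2rx3 is an ATP-gated channel, Mrgprd a receptor for beta-alanine and Pirt a membrane protein that regulates TRP channels. Avil (advillin) binds actin in sensory neurons, Prdm12 is a regulator of nociceptor development, and Tmem233 is a small membrane protein found in sensory neurons.

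The promoters of 7 of the 10 genes were listed in RefSeq (assembly GRCr8), as 300 bases from 250 before to 50 after a transcription start, with 2 starts each for P2rx3 and Prdm12. Motifs were searched on both strands as letters only: TGTGGT, the RUNX core, TAATTA, a homeodomain core, CAGCTG, an E-box, and TGACGTCA, the cAMP response element. These 5 promoters are shown because each holds at least 1 of these motifs, printed 5′ to 3′ on the gene's own strand with the motifs in capitals. They lie at chr10:58349686-58349985 (Trpv1, plus strand), chr7:64711153-64711452 (Avil, plus strand), chr8:128444669-128444968 (Scn11a, minus strand), chr9:96351433-96351732 (Trpm8, plus strand) and chr3:90529260-90529559 (P2rx3, minus strand, 1 of its 2 promoters).
Trpv1: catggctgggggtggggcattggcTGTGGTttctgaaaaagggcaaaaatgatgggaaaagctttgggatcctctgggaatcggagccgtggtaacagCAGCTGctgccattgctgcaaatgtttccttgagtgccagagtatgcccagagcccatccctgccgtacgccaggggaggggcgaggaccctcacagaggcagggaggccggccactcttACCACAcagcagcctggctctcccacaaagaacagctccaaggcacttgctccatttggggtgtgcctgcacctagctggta
Avil: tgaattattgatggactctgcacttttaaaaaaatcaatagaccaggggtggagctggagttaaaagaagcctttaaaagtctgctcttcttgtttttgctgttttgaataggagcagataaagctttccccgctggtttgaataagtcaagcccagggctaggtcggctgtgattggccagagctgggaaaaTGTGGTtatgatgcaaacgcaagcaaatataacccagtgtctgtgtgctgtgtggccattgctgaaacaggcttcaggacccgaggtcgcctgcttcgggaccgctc
Scn11a: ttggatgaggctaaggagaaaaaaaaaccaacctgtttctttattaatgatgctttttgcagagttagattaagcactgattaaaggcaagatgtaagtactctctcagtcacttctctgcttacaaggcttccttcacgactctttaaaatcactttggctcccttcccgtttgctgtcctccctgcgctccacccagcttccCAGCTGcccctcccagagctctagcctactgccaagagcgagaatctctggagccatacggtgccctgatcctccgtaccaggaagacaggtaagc
Trpm8: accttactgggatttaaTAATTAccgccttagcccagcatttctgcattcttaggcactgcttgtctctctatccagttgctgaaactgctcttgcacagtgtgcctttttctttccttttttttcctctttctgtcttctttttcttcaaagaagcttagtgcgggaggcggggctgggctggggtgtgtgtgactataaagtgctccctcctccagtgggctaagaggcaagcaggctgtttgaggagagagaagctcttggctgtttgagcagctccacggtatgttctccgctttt
P2rx3: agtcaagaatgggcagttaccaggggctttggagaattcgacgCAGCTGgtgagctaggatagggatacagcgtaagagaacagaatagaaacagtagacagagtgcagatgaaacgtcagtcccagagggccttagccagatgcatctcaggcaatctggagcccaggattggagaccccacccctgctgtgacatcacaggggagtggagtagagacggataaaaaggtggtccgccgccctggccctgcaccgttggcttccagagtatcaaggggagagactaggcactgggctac
The RUNX core was in the promoters of 2 members, Avil with 1 match and Trpv1 with 2, and in 17.3% of all 33469 promoters of that length. The E-box was in Trpv1, Scn11a and 1 of the 2 promoters of P2rx3, against 15.1% of all promoters. The homeodomain core was in Trpm8 alone among these members, against 5.36% of all. The cAMP response element was in 0 of the 9 member promoters and in 1.83% of all. No motif matches overlapped. A match describes the letters and not a binding site, and its relation to the levels was not tested.

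Expression was given as FPKM, fragments scaled by transcript length and by the mapped reads of the library, so levels can be compared between genes. The table already held 0.1 wherever a value was lower, and 39.7% of its values stood there. A gene at 0.1 is at or under that floor, and a fold against it is a lower bound. Reads per gene were not available, so the number behind each FPKM value is unknown and precision rests on the spread between animals. The paper does list the total reads of each library. Genes with at least 1 FPKM in any of the 20 libraries were tested, which kept 15210. Of the members 7 were kept and Trpm8, Mrgprd and Prdm12 were not, and without the 2 stimulated libraries of region 5 the filter would have kept 0 of the 10.

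In region 5, all 10 genes were higher in both stimulated animals than in both controls, and higher than in every one of the other 18 libraries. The summed level of the 10 was 2.02 and 1.91 FPKM in the control animals and 16.8 and 30.0 FPKM in the stimulated animals, against 1.28 to 2.48 FPKM in the 16 libraries of regions 1 to 4. Both stimulated libraries lay above both controls in 12.2% of all listed genes, at least 2-fold above them in 0.351%, and above all other 18 libraries in 2.29%. The members met all 3, but they were picked from this contrast, so nothing is read from the counts. The median difference of the 10 genes was 3.43 on the log2 scale, from 1.63 for Prdm12 to 5.09 for Tmem233, against a median of 0.05 over all genes kept.

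**Figure D1:**
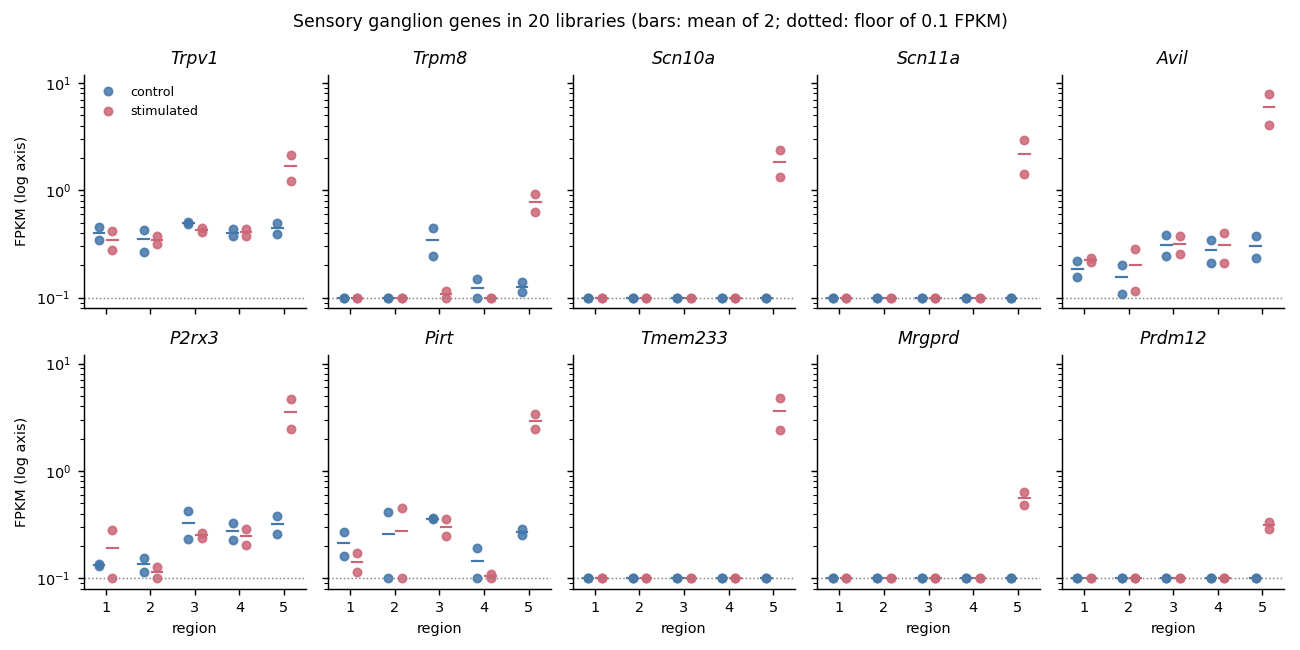
FPKM on a log axis of the 10 genes in each of the 20 libraries, by region and group. The dotted line is the floor of 0.1 FPKM and the short bars are means of 2 animals. Both stimulated libraries of region 5 lie above all other 18 libraries for every gene, and Scn10a, Scn11a, Tmem233, Mrgprd and Prdm12 stand at the floor elsewhere.

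The sodium channels stood at the floor outside the 2 stimulated region 5 libraries. Scn10a (ENSRNOG00000032473) was at 1.32 and 2.39 FPKM in the stimulated animals and at 0.1 FPKM in both controls, at least 18.6-fold higher. Scn11a (ENSRNOG00000032884) was at 0.1 FPKM in both controls and at 1.41 and 2.92 FPKM with stimulation, at least 21.6-fold higher. Both genes were at 0.1 FPKM in all 18 other libraries, so the groups did not overlap.

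Trpv1 (ENSRNOG00000019486) was at 0.499 and 0.388 FPKM in the region 5 controls and at 1.22 and 2.13 FPKM in the stimulated animals, 3.77-fold higher. Trpv1 was above the floor in all 18 other libraries, at a lowest of 0.268, a median of 0.412 and a highest of 0.512 FPKM. Its difference in region 5 was a step above a level measured in every library. Trpv3, an adjoining gene, a warmth-gated channel of skin, was at 0.610 and 0.686 FPKM in controls. In stimulated animals Trpv3 was at 0.799 and 0.590 FPKM, and these groups overlapped. The coding gene on the other side of Trpv1 is not reported here, so nothing is read from Trpv3 about the locus. Trpm8 (ENSRNOG00000019035) was at 0.14 and 0.112 FPKM in controls and at 0.631 and 0.923 FPKM with stimulation, 6.17-fold higher. Of the 18 other libraries, 6 were above the floor for Trpm8, the highest at 0.441 FPKM, so the lower stimulated library was 1.43 times the highest of the rest.

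P2rx3 (ENSRNOG00000008552) was at 0.259 and 0.383 FPKM in controls and at 2.46 and 4.69 FPKM in stimulated animals, 11.1-fold higher. P2rx3 was above the floor in 16 of the 18 other libraries, with a highest of 0.425 FPKM. Pirt (ENSRNOG00000037852) was at 0.253 and 0.288 FPKM in controls and at 2.47 and 3.37 FPKM with stimulation, 10.8-fold higher, and above the floor in 14 of the other 18. Mrgprd (ENSRNOG00000013448) was at 0.1 FPKM in all 18 other libraries and at 0.483 and 0.632 FPKM in the stimulated ones, at least 5.57-fold higher. Every receptor separated the stimulated from the control animals in region 5.

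Avil (ENSRNOG00000050419) had the highest level of the 10 in both stimulated animals, at 4.03 and 7.92 FPKM, against 0.372 and 0.236 FPKM in controls, 19.6-fold higher. Its level in the other 18 libraries ran from 0.108 to 0.402 FPKM and was above the floor in each. Tmem233 (ENSRNOG00000053974) was at 0.1 FPKM in both controls and at 2.42 and 4.77 FPKM with stimulation, at least 35.9-fold higher. Prdm12 (ENSRNOG00000009218), a transcription regulator, had the lowest level, with 0.334 and 0.286 FPKM in the stimulated animals and 0.1 FPKM in the 18 others, at least 3.1-fold higher. Prdm12 and Mrgprd are the members nearest to the floor.

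Some members share genome sequence with another gene in the annotation (assembly GRCr8), judged by the whole span of each gene. Whether their exons overlap was not examined. The strand used in counting was not stated, so reads from a shared stretch may not have been told apart. Avil overlaps Tsfm, a mitochondrial translation factor, which was at 11.2 and 11.7 FPKM in controls and 11.6 and 11.2 FPKM in stimulated animals. P2rx3 overlaps Ssrp1, a chromatin factor, at 18.7 and 16.6 FPKM in controls and 16.9 and 20.9 FPKM with stimulation. Trpm8 overlaps Hjurp, a centromere histone chaperone, at 0.446 and 0.412 FPKM in controls and 0.403 and 0.683 FPKM with stimulation. The groups of these 3 partners overlapped in region 5. The members were chosen on that contrast, so nothing is read from the difference between members and partners. Scn10a, Pirt and Tmem233 also overlap other annotated genes, whose levels are not given here. The part of shared reads in the members' values was not tested.

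The 2 stimulated animals differed from each other in the same direction for 9 of the 10 genes. The ratio of stimulated animal 2 to stimulated animal 1 had a median of 1.78 over the members, against 1.09 over all genes kept, and ran from 1.31 for Mrgprd to 2.07 for Scn11a, with Prdm12 at 0.855 as the exception. The order of the members by level was nearly the same in both animals: Avil first, then Pirt, P2rx3 and Tmem233 in places 2 to 4, and Scn11a, Scn10a, Trpv1, Trpm8, Mrgprd and Prdm12 in places 5 to 10 of both. With 2 animals a group, neighbours in that order cannot be separated by a test.

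**Figure D2:**
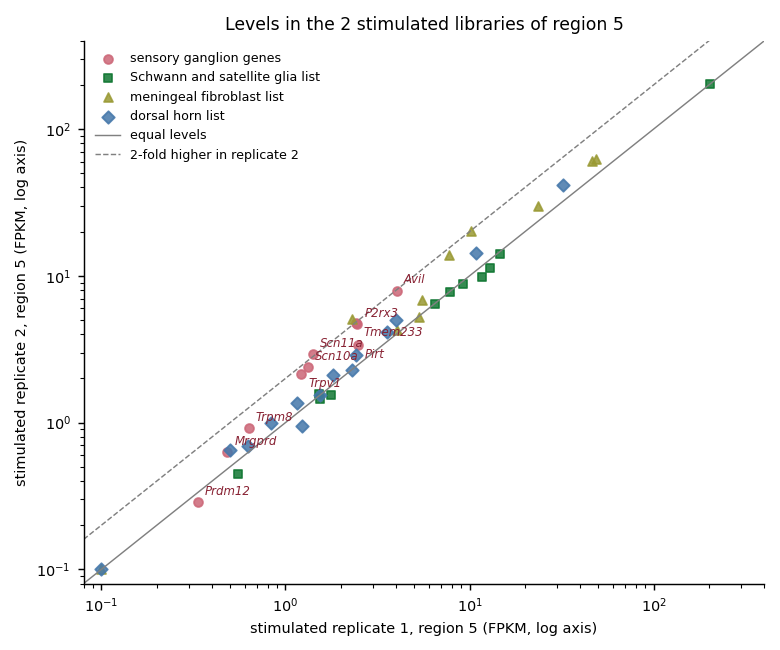
FPKM in region 5 of stimulated animal 1 (x axis) and animal 2 (y axis), both log axes, for the 10 genes and the Schwann and satellite glia, meningeal fibroblast and dorsal horn lists. The solid line marks equal levels and the dashed line a 2-fold higher level in animal 2. Of the 10, all but 1 lie above the solid line, Scn11a at 2.07 times, and Prdm12 alone lies below it at 0.855 times.

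Stimulation was then compared in regions 1 to 4, whose libraries the choice of genes had not used. The limma test with Benjamini-Hochberg adjustment over all 15210 genes called none of Trpv1, Avil, P2rx3 and Pirt in any of the 4 regions, and none had an unadjusted p under 0.05. Over all genes it called 0.0%, and 5.44%, 1.41%, 3.43% and 2.24% had an unadjusted p under 0.05 in regions 1 to 4. Scn10a, Scn11a and Tmem233 stood at 0.1 FPKM in all 16 libraries and could not be called, and the members entered the fits only through their levels in the stimulated libraries of region 5, so no share of the members is set against that of all genes. The median difference over the 10 members was 0 in all 4 regions, with 5 of them at the floor throughout, while over all genes kept it was -0.03, 0.08, -0.07 and 0.00. With 2 animals a group, a p that misses the threshold does not show that the levels were alike. The difference between the effect in region 5 and that in the other regions was not tested.

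Region 3, the cord above the lesion, held the members whose groups did not overlap. Both stimulated libraries lay below both controls for 3 of the 10, Trpv1, Trpm8 and Pirt, against 15.0% of all listed genes and 24.7% of those kept. Trpv1 was at 0.482 and 0.512 FPKM in controls and 0.41 and 0.448 FPKM in stimulated animals, a log2 difference of -0.21 (SE 0.10, adjusted p 0.956). Pirt was at 0.362 and 0.354 FPKM in controls and 0.246 and 0.352 FPKM with stimulation, a difference of -0.28 (SE 0.20, adjusted p 0.956). Trpm8, which the filter left out, was at 0.247 and 0.441 FPKM in controls and 0.1 and 0.114 FPKM with stimulation, and a fit without the filter gave -1.63 (SE 0.37, unadjusted p 0.0264, adjusted p 1). None passed the adjusted threshold. In the same libraries all 5 kept skeletal muscle genes were above in both stimulated animals, with a median log2 difference of 1.72 and sums of 4.57 to 5.30 FPKM in controls and 10.8 to 19.9 FPKM with stimulation, and their part in the members' values was not tested. In region 4, the lesion, Pirt was at 0.191 and 0.1 FPKM in controls and 0.1 and 0.109 FPKM with stimulation, -0.40 (SE 0.33, adjusted p 1). Without control animal 2 the difference was -0.87, from 1 control and 2 stimulated libraries at or next to the floor.

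Comparing regions 1 to 4 with each other does not use region 5 and has 8 cord libraries (regions 3 and 4) and 8 white matter libraries (regions 1 and 2). P2rx3 was higher in cord, at 0.275 ± 0.0712 FPKM (SD, n = 8) against 0.143 ± 0.0579 FPKM (SD, n = 8), a log2 difference of 0.99 (SE 0.26, limma adjusted p 0.00337), where the median of all genes was 0.135. Its cord libraries ran from 0.205 to 0.425 FPKM with a median of 0.25, and its white matter libraries from 0.1 to 0.279 with a median of 0.128, so the ranges met. Avil was higher too, at 0.302 ± 0.08 against 0.192 ± 0.061 FPKM (SD, n = 8 each), with a difference of 0.68 (SE 0.26, limma adjusted p 0.0300). Its cord libraries ran from 0.212 to 0.402 FPKM and its white matter libraries from 0.108 to 0.285 FPKM. Over all genes kept 65.5% were called, 40.4% higher and 25.1% lower in cord. Each animal gave 2 of the 8 libraries of a tissue, so the SDs are over libraries and not over separate animals. With the animal as a block the adjusted p was 0.00198 for P2rx3 and 0.00792 for Avil. Both calls were lost with quantile normalization and with a floor of 0.5 FPKM, and Avil's also with log2(FPKM + 1) and without control animal 1, control animal 2 or stimulated animal 1. All these levels are under 0.5 FPKM. P2rx3 and Avil entered this fit only because their stimulated libraries of region 5 reached 1 FPKM, so no share of the members is set against that of all genes.

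The other members did not pass that test. Trpv1 was at 0.435 ± 0.0473 FPKM in cord and 0.359 ± 0.0707 FPKM in white matter (SD, n = 8 each), a log2 difference of 0.29 (SE 0.15, limma adjusted p 0.106), which was -0.07 with quantile normalization. Pirt was at 0.227 ± 0.118 and 0.222 ± 0.141 FPKM, 0.07 (SE 0.36, limma adjusted p 0.870). Trpm8 was at 0.1 FPKM in all 8 white matter libraries and at 0.169 ± 0.121 FPKM in cord (SD, n = 8), and the fit without the filter gave 0.52 (SE 0.25, limma adjusted p 0.142). Scn10a, Scn11a, Tmem233, Mrgprd and Prdm12 stood at 0.1 FPKM in all 16 libraries, so they have no measured level in either tissue. Between the lesion and the cord above it, limma called none of Trpv1, Avil, P2rx3 and Pirt, and Pirt had an unadjusted p under 0.05. Over all genes 15.4% were called (4.79% higher and 10.6% lower) and 32.5% had an unadjusted p under 0.05. In the lesion Pirt stood at 0.191, 0.1, 0.1 and 0.109 FPKM against 0.362, 0.354, 0.246 and 0.352 FPKM, without overlap, with a difference of -1.43 (SE 0.51, limma adjusted p 0.0692).

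**Figure D3:**
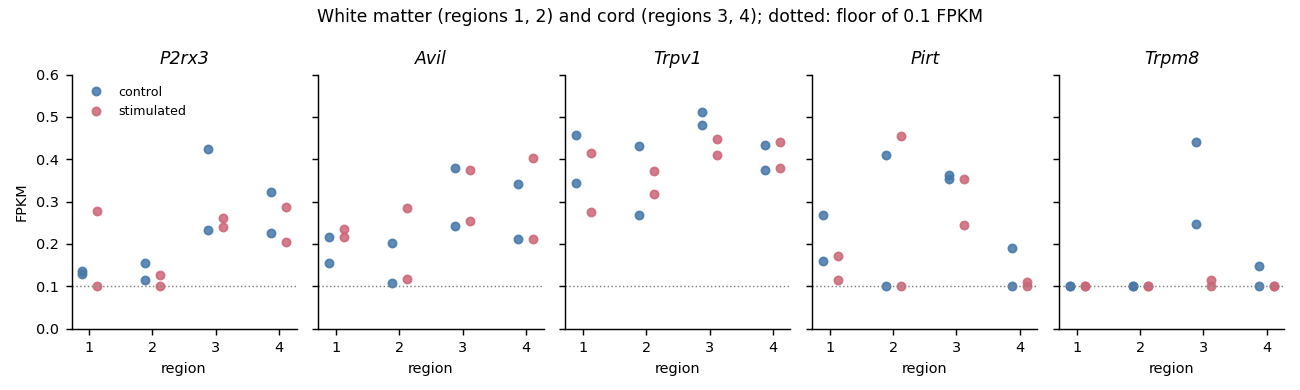
FPKM on a linear axis of the 5 members above the floor anywhere in regions 1 to 4, each point 1 of 16 libraries, colored by group, with the floor of 0.1 FPKM dotted. P2rx3 averages 0.275 FPKM in cord and 0.143 FPKM in white matter, and Trpm8 leaves the floor in cord only among these libraries.

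Other genes of sensory ganglia were counted from 4 lists. Of 8 kept channels and receptors, both stimulated libraries of region 5 were above both controls for 6 and below for 1, with a median log2 difference of 0.95. Over all genes kept, 18.5% were above, 6.07% below and 0.388% at least 2-fold above, and 3.79% were above all other 18 libraries. Piezo2, the touch-sensing channel, was at 0.34 and 0.334 FPKM in controls and 1.42 and 2.77 FPKM in stimulated animals, a log2 difference of 2.56. Trpa1, the irritant channel, was at 0.12 and 0.202 FPKM in controls and 1.31 and 0.591 FPKM with stimulation, but stimulated animal 1 also had 0.914 FPKM in region 3 and 0.71 FPKM in region 4. Mrgpre, an orphan receptor of the same family as Mrgprd, was at 7.14 and 5.49 FPKM in controls and 4.64 and 5.39 FPKM with stimulation. Asic3, an acid-sensing channel, was at 0.149 and 0.1 FPKM in controls and 0.503 and 0.423 FPKM with stimulation. The prostacyclin receptor Ptgir, at 0.107 and 0.1 against 0.312 and 0.597 FPKM, and the nicotinic receptor subunit Chrna6, at 0.133 and 0.1 against 0.318 and 0.825 FPKM, also had both stimulated libraries at least 2-fold above.

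Of 7 kept transcription factors, 3 were above in both stimulated animals and 0 below, with a median difference of 0.60. Isl1, a factor of sensory and motor neurons, was at 0.522 and 0.495 FPKM in controls and 1.17 and 1.04 FPKM with stimulation. Isl2 was at 0.82 and 0.866 FPKM in controls and 2.05 and 1.98 FPKM with stimulation. Of 10 peptides and growth factor receptors, 5 were above and 0 below, with a median of 0.18. Calca, the gene of calcitonin gene-related peptide, which motor neurons also make, was at 32.7 and 37.1 FPKM in controls and 38.7 and 53.1 FPKM with stimulation, and Gfra3, a receptor subunit of nociceptors, was at 0.1 and 0.1 against 0.414 and 0.649 FPKM. Of 10 soma and filament genes, 6 were above and 1 below, with a median of 0.09. The most abundant of them, Nefl, Uchl1 and Tubb3, which neurons of the cord also make, differed by 0.05, 0.06 and 0.11. The sodium channel Scn9a, outside the naming rule and chosen after its values were seen, was at 1.32 and 1.18 FPKM in controls and 2.38 and 2.77 FPKM with stimulation. In all, limma called 1 of the 98 kept genes of the 13 lists in region 5, the pigment cell gene Tyrp1, and 26 had an unadjusted p under 0.05, while over all genes it called 3 of 15210 (0.0197%) and 3.59% had an unadjusted p under 0.05. In each of these 3 genes, both libraries of 1 group stood at 0.1 FPKM, so the floor left that group without spread. The lists were chosen with earlier results of these data known, so their counts are a description.

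Markers of cells that lie around roots and ganglia stood higher in the same libraries. All 11 kept genes of Schwann cells and satellite glia, the glia of peripheral nerve and ganglia, were above in both stimulated animals of region 5, against 18.5% of all genes kept, with a median log2 difference of 0.95. Drp2, a protein of the Schwann cell membrane, was at 9.59 and 8.45 FPKM in controls and 14.6 and 14.0 FPKM with stimulation, and Pmp2, a lipid-binding myelin protein, was at 8.35 and 6.29 against 11.7 and 9.84 FPKM. The summed level of that list was 104 to 128 FPKM in controls and 266 to 271 FPKM in stimulated animals of region 5, but in region 4 it was 127 to 138 against 96.3 to 101 FPKM. For the 9 kept meningeal fibroblast genes, 7 were above and 0 below, with a median of 1.16, and their sum was 87.7 to 89.4 FPKM in controls and 154 to 209 FPKM with stimulation. Dcn, a matrix proteoglycan, was at 21.4 and 25.1 against 48.7 and 62.2 FPKM. The median ratio of stimulated animal 2 to animal 1 was 0.95 for the Schwann list and 1.28 for the meningeal list, beside 1.78 for the members. The part of these cells in the members' difference was not tested.

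Lists of the cord's own cells, and those of skeletal muscle, cortical neurons and pigment cells, had medians from -0.13 to 0.07, against 0.05 over all genes kept. Of 13 kept dorsal horn neuron genes, 1 was above and 2 below, with a median of -0.13, and their sum was 70.0 to 82.4 FPKM in controls and 63.1 to 78.8 FPKM with stimulation. Of 4 motor neuron genes, 0 were above and 0 below, with sums of 85.7 to 96.4 and 88.3 to 90.3 FPKM. Oligodendrocyte genes summed to 8915 to 10644 FPKM in controls and 8484 to 10779 FPKM with stimulation. The medians were -0.05 for 6 oligodendrocyte genes, -0.11 for 5 skeletal muscle genes, -0.12 for 6 genes of cord position and inhibitory neurons, 0.00 for 5 cortical neuron genes and 0.07 for 4 pigment cell genes. In the cortical list, Slc17a7, a vesicular glutamate transporter that large sensory neurons also make, was at 0.977 and 0.729 FPKM in controls and 2.13 and 2.45 FPKM with stimulation. Pigment cell genes included Tyrp1, a melanin enzyme, at 0.1 FPKM in both controls and 2.90 and 2.74 FPKM with stimulation, at least 28.2-fold higher, with at most 0.134 FPKM in the other 18 libraries (limma adjusted p 0.0192). The floor set the spread of its controls to 0, so that p rests in part on the floor.

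**Figure D4:**
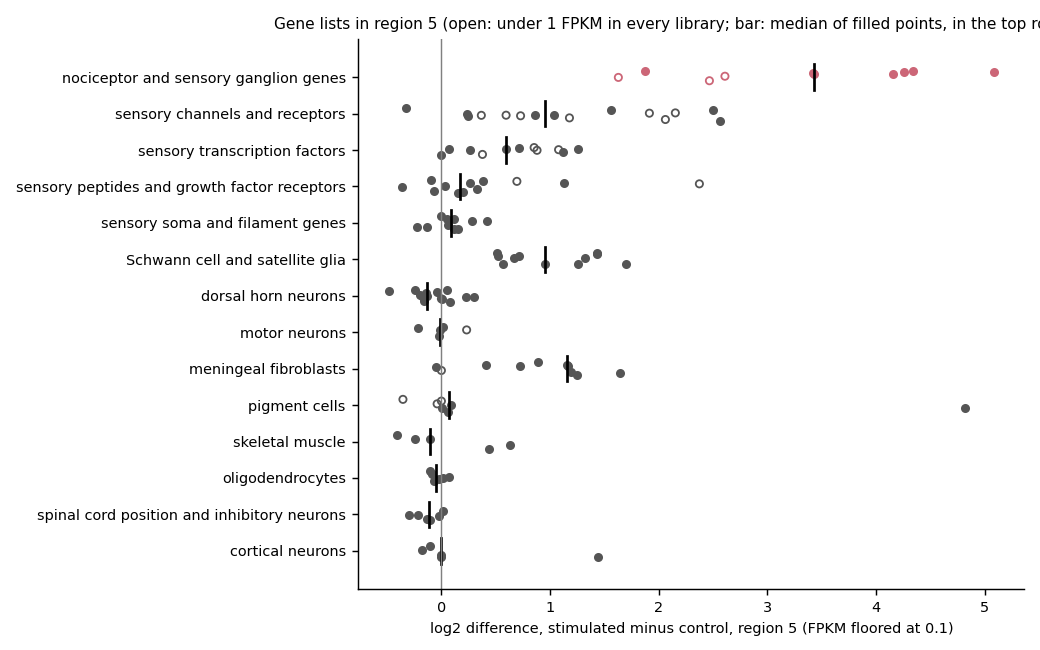
Log2 difference of stimulated minus control animals in region 5 for each gene of the members and of the 13 lists, with open points for genes under 1 FPKM in every library and bars for medians, over all 10 members and over the kept genes of each list. The members center on 3.43, the Schwann cell and satellite glia list on 0.95 and meningeal fibroblasts on 1.16, while dorsal horn neurons center on -0.13.

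Genes other than the members were ranked by the Pearson correlation of their log2 level with the mean log2 profile of the members, given as a description. The points share the libraries, and each member is part of the mean profile. That profile is high in the stimulated libraries of region 5, on which the members were chosen, so nothing is read from the size of r. The members' own values of r ran from 0.885 to 0.987. Over all 20 libraries the 10 most alike were Htr3b (r = 0.987), Tyrp1 (0.985), Mrgprb4 (0.980), both entries of Aspn (0.957 and 0.926), Ppef1 (0.945), LOC100363436 (0.929), AABR07012277.1 (0.918), Tusc5 (0.912) and Ppp1r1c (0.897). Htr3b, a subunit of the serotonin-gated channel, was at 0.816 and 1.29 FPKM in the stimulated animals of region 5 and at 0.1 FPKM in the other 18 libraries. Mrgprb4, a receptor of touch-sensing C fibers, was at 0.847 and 2.49 FPKM there and at 0.1 FPKM elsewhere. Aspn, a matrix protein, was at 0.465 and 2.02 FPKM in 1 entry and at 1.01 and 4.6 FPKM in the other. Over the 12 cord libraries alone, 6 of the 10 were again among the most alike. The others were LOC102555574 (r = 0.969), Piezo2 (0.965), Shisa3 (0.951) and Dok4 (0.950). That ranking leaves out white matter, where LOC102555574 was at 1.17 to 1.86 FPKM, against 0.198 and 0.194 FPKM in the stimulated animals of region 5. Shisa3 reached 2.18 FPKM in white matter, against 1.21 and 1.43 FPKM. Piezo2 and Dok4 were highest in the stimulated libraries of region 5 among all 20.

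**Figure D5:**
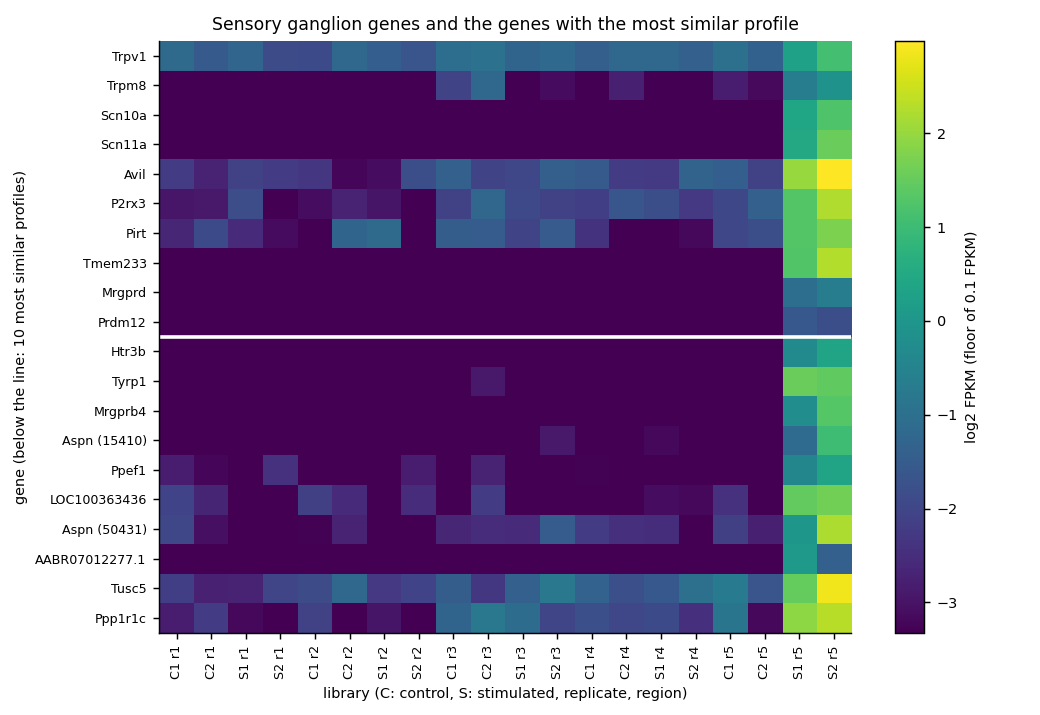
Heat map of log2 FPKM in the 20 libraries (columns, control C and stimulated S with animal and region) for the 10 members, above the white line, and the 10 most similar genes, below it. Htr3b and Mrgprb4 stand at the floor of 0.1 FPKM in all libraries but the stimulated region 5 pair, where they reach 1.29 and 2.49 FPKM.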

How the data were processed

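The table the authors deposited holds 20 RNA-seq libraries, from 5 regions of 2 control and 2 stimulated rats. Per the labels and the study's methods, total RNA was depleted of ribosomal RNA, read in pairs, aligned to Rnor6 with TopHat2 2.1.0 and quantified with Cufflinks 2.2.1, and the authors deposited FPKM values per gene with values under 0.1 raised to 0.1. MultiQC 1.6 is named in the submitters' processing notes. The strand used in counting and the annotation version are not given in the sources used here, and Rnor6 coordinates are not used here. All columns carried a sample title.

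The members and lists were chosen with earlier results of these data known. Tests used log2 of FPKM (floor 0.1) for genes reaching 1 FPKM in any library. Stimulation was tested with limma 3.58.1 (R 4.3.3, moderated variances with a trend) separately in every region, on 4 libraries each. Regions were compared on the 16 libraries of regions 1 to 4 with 1 mean per region. P-values were adjusted by Benjamini-Hochberg across every gene in the fit, and 0.05 was the threshold. Region 5 was fitted for all genes, and no test is given there for the members. Within a region replicates are separate animals, and where regions are joined each animal counts once per region. Each animal gave 1 library per region, and deviations were taken from the mean of all 4 libraries of the region, stimulated and control together. Between regions the deviations of the same animal correlated at 0.588 for regions 1 and 2, 0.127 for 1 and 3, -0.0332 for 1 and 4, 0.106 for 2 and 3, -0.0126 for 2 and 4 and 0.208 for 3 and 4. These values include any difference between stimulated and control animals that regions share. The fits were tested on simulated data. Alternatives were log2(FPKM + 1), a floor of 0.5 FPKM, no filter, quantile and upper-quartile scaling, eBayes without trend, the replicate or animal as a block and leaving out each animal.

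All 10 members were named. From each sensory list the 3 genes of highest mean and those at least 2-fold higher in both stimulated region 5 libraries were named, and from each other list the 3 of highest mean. Some single genes that fall under this rule or near the members are not reported here. Genes matched RefSeq by symbol, and all 10 members were found, 7 with a promoter. Python 3.11.15, numpy 2.4.6, pandas 2.3.3, scipy 1.17.1 and matplotlib 3.10.9 were used for the rest.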

Additional observations from a re-analysis of the deposited data

Results flagged for a closer look

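For Trpv1, Trpm8 and Pirt, both stimulated libraries of region 5 lay above both controls while both stimulated libraries of region 3 lay below theirs. The log2 effect in region 5 minus that in region 3 was 2.08 for Trpv1 (1.87 and -0.21), 4.24 for Trpm8 (2.61 and -1.63) and 3.70 for Pirt (3.42 and -0.28). In region 3, both stimulated libraries lay below both controls in 15.0% of all listed genes and 24.7% of those kept. These differences were not tested, and region 5 was the contrast from which the genes were chosen, so its part of each difference was fixed by that choice.

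In 19 groups of 4 or 8 libraries, 6 held a library far from the rest. The nominal rate of 1 group in 20 holds for separate groups of values without a floor. Here groups share libraries, join stimulated and control animals and hold values at the floor, so the 6 are not set against that rate. Control animal 2 was high in region 3 for Trpm8, at 0.441 FPKM against 0.247 for the next of the 8 cord libraries, and for P2rx3, at 0.425 FPKM against 0.262 for the next of 4. It was also the only library of region 4 above the floor for Trpm8, at 0.148 FPKM. P2rx3 was at 0.279 FPKM in region 1 of stimulated animal 1, against 0.155 for the next of 8 white matter libraries. Pirt was low in region 3 of stimulated animal 1, at 0.246 FPKM against 0.352 for the next, and high in region 4 of control animal 1, at 0.191 FPKM against 0.109 for the next.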

How the results depend on the processing

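The median log2 difference of the members in region 5 was 3.43, and it was 1.42 with log2(FPKM + 1), 1.92 with a floor of 0.5 FPKM, 3.36 with quantile normalization, 3.39 with upper-quartile scaling and 3.08 to 3.77 when each animal was left out. By construction, adding 1 FPKM and raising the floor to 0.5 FPKM both shrink differences that involve low levels. The count of members called in cord against white matter, 2, was 1 with log2(FPKM + 1), 0 with a floor of 0.5 FPKM, 0 with quantile normalization and 1 to 2 when an animal was left out. Without control animal 1, control animal 2 or stimulated animal 1, Avil had an adjusted p of 0.138, 0.0845 and 0.0658. With quantile normalization Avil had an adjusted p of 0.538 and P2rx3 of 0.336. The range over all alternatives was 0.00792 to 1 for Avil and 0.000553 to 1 for P2rx3, and Trpv1 passed without a trend (adjusted p 0.0362). The cause was not tested. In region 4, the difference of Pirt with stimulation was -0.87 without control animal 2. The lone control was then assumed to vary like the other group, whose 2 values were at or next to the floor, so no call is given. All-gene calls in cord against white matter were split 6141 higher and 3822 lower, 5574 and 4674 with quantile normalization and 6219 and 4341 with upper-quartile scaling. For the lesion against the cord above it they were 729 and 1609, 1532 and 2478, and 1654 and 2139. The median difference of all genes between cord and white matter was 0.135, and 0.0450 with quantile normalization.

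Stimulated and control animals share only a replicate number, and same-numbered libraries had deviations that correlated between -0.213 and 0.321 over the 5 regions. With the replicate block, 0 members were called in regions 1 to 4, and with the animal as the block 2 in cord against white matter and 0 in region 4 against region 3, and the region 5 median was 3.43. Of 642 values of single genes under alternatives, 605 kept direction and side of the threshold or moved within the spread of replicates, 8 lost a call, 2 gained one, 27 values without a test moved further and 0 called values turned sign, while 29 uncalled values did. In region 5 no member's difference was negative under any alternative, although Prdm12 was at 0 and Mrgprd at 0.17 with a floor of 0.5 FPKM. Levels near 0.1 FPKM with 2 animals a group limit every member's value.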
